A study of Mus musculus with 12 samples.

Results

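The comparison described here set untreated mouse tubular epithelial cells carrying a construct for expression of Nnmt against untreated cells of the same line carrying a mock construct. The groups compared hold 6 of the 12 libraries of the series, chosen by their labels alone, with 3 libraries in each group. The line, im_TEC, is conditionally immortalised by the SV40 large T antigen, so both groups carry that antigen. Growth at 33 °C in 10 ng/mL interferon γ was followed, in both groups, by 7 days at 37 °C with no interferon, which lowers the activity of the antigen. The medium of both groups held 20 ng/mL epidermal growth factor, a ligand that activates ERK. Cells of both groups were selected with puromycin. The labels give neither the promoter that drives Nnmt, nor the 3′ end of its message, nor whether the cells are 1 clone. The other 6 libraries came from the same pair of cell populations after 48 h with transforming growth factor β (TGFβ) at 10 ng/mL, and were part of the same statistical fit, where they help to set the estimate of spread. The title of the series names tubular senescence and fibrosis, and the comparison bears on which genes differ with the construct alone.

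Nnmt encodes nicotinamide N-methyltransferase, which methylates nicotinamide at the expense of S-adenosylmethionine and so touches both the methyl supply and the precursor of NAD. Immediate-early genes, the class of every gene that passed the test here, are genes whose transcription starts within minutes of a stimulus without new protein synthesis. Growth factors switch them on through the kinases ERK, JNK and p38 and the transcription factors SRF and CREB, their messages are short-lived, and many of their products, such as the dual-specificity phosphatases, feed back to silence the kinases.

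Counts were of sequenced tags near the 3′ ends of polyadenylated messages, and levels are given as counts scaled to the size of the library (CPM), which are not scaled by transcript length. The untreated libraries held between 4733846 and 6753611 assigned reads. Mock replicate 1 stood apart from the other 5 on the first principal component of these 6 libraries (28.2% of the variance), and Nnmt-OE replicate 1 on the second (21.7%), so the main counts are also given without both. Library codes of the construct and mock groups do not interleave, so handling and construct cannot be told apart, with or without TGFβ. Nothing in the labels says that replicates were separate cultures, and the p-values then reflect the spread among these libraries, which may be technical only. Proximal tubule markers were detected in part. Of 43 marker genes, 19 had no read in any of the 6 libraries, among them the phosphate transporter gene Slc34a1 and the regulator gene Hnf4a, while the water channel gene Aqp1 averaged 1030 CPM, the endocytic receptor gene Lrp2 138 CPM and the kidney factor gene Pax8 242 CPM. A gene at 0 in this table need not be silent, since 4 of 15 mitochondrial transcripts and 1 of 76 ribosomal protein genes also had no read in the 6 libraries. Summed proximal tubule markers were 2581 to 2832 CPM in mock and 2850 to 2923 CPM in labelled Nnmt-OE, without overlap. Aqp1 was the largest part of this sum. Of the 16 tested proximal tubule members, 6 had a log2 fold change above 0 (median -0.05). Of the 16, 1 (6.25%), Aqp1, was higher without overlap, against 5.64% of all genes tested. Summed markers of other nephron segments were 1032 to 1056 CPM in mock and 932 to 1008 CPM in labelled Nnmt-OE, also without overlap, with 16 of 29 genes at 0 and most of the sum from the kinase gene Wnk1 (782 CPM on average). All 6 tested members of that list had a log2 fold change below 0 (median -0.34), and 0 passed edgeR's quasi-likelihood test. Of the 6, 0 were without overlap, against 5.64% higher and 5.29% lower over all genes tested. The part of these markers in the results below was not tested. Sums for cell types from outside the tubule overlapped between the groups. Summed fibroblast and pericyte markers lay at 3.2 to 5.51 CPM in mock and 1.91 to 8.22 CPM in labelled Nnmt-OE, with 9 of 14 genes at 0. Summed endothelial markers lay at 4.03 to 7.28 and 5.85 to 7.63 CPM (7 of 14 at 0), leukocyte markers at 102 to 119.8 and 103 to 119 CPM (8 of 15 at 0), and podocyte markers at 412 to 461 and 428 to 483 CPM (3 of 11 at 0).

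Nnmt itself was not separated between the groups. It stood at 24.7, 17.8 and 18.3 CPM in mock replicates 1 to 3 and at 24.5, 28.5 and 22.9 CPM in the libraries labelled Nnmt-OE. Mock replicate 1 lay inside the range of the construct libraries, so the groups overlapped. The fold was 1.25 (95% interval 0.92 to 1.69), with an adjusted p of 0.897 (edgeR's quasi-likelihood test, Benjamini-Hochberg). If the construct lacks the native 3′ end of the gene, its message escapes this kind of count, and Nnmt is no check of the labels. The sample titles name the construct Nnmt-OE, while the genotype field of the same samples has Nmt-OE. The groups are therefore called mock and labelled Nnmt-OE, and each direction below rests on that label.

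Of 12897 genes tested, 5 were higher in labelled Nnmt-OE and 0 were lower at an adjusted p under 0.05 in edgeR's quasi-likelihood test (0.0388% and 0%). The genes that rose were Egr1, Dusp1, Trib1, Ier3 and Ccn1, and all of them belong to the immediate-early class. At an unadjusted p under 0.05 there were 400 genes higher (3.1%) and 353 lower (2.74%). DESeq2 and limma-voom each gave 5 higher and 0 lower, the same 5 genes, with 424 and 402 genes higher and lower at an unadjusted p under 0.05 in DESeq2 and 425 and 355 in limma-voom. Over all genes tested the log2 fold changes had a median of 0.00 and quartiles of -0.16 and 0.16.

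**Figure D1:**
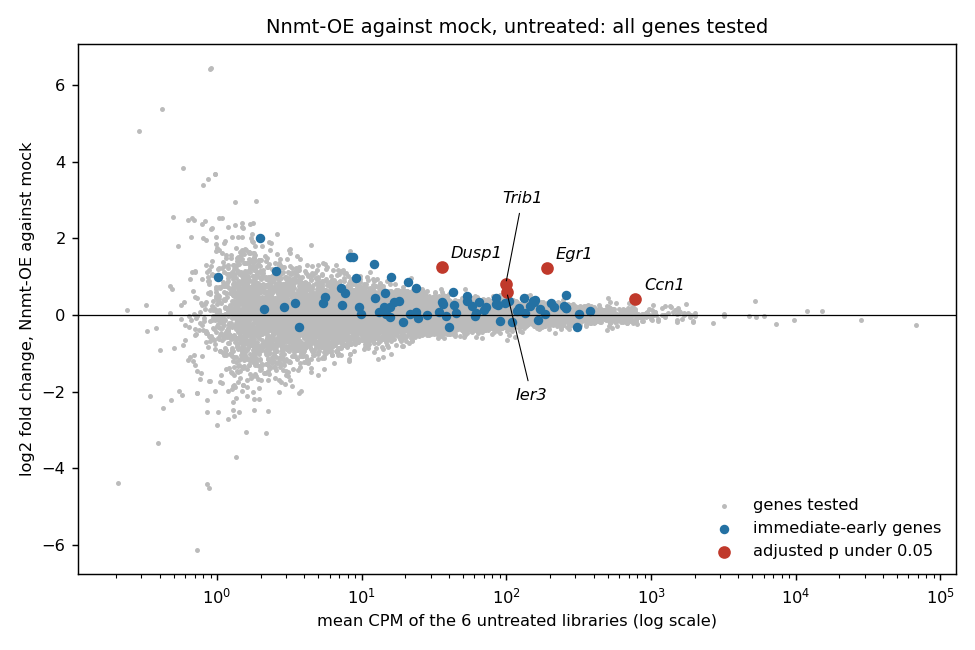
Log2 fold change of labelled Nnmt-OE against mock (y axis) by mean CPM of the 6 untreated libraries (x axis, log scale) for the 12897 genes tested, with the 83 tested immediate-early genes in blue and the 5 genes past the test in red. The cloud is centred on 0 and narrows to the right, and the 5 red points lie at or past its upper edge.

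Egr1 (ENSMUSG00000038418) encodes a zinc-finger transcription factor induced through ERK and SRF. It stood at 122, 110.3 and 108.7 CPM in mock and at 279.8, 267.6 and 252.4 CPM in labelled Nnmt-OE. Every construct library held more than 2 times the level of every mock library, and the spread within each group was small beside the gap. The log2 fold change was 1.23 ± 0.11 (SE, edgeR's quasi-likelihood test, adjusted p = 3.56e-10).

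Dusp1 (ENSMUSG00000024190) encodes a nuclear phosphatase that removes phosphate from p38, JNK and ERK. It stood at 16.7, 19.1 and 27.9 CPM in mock and at 45.7, 54.7 and 50.7 CPM in labelled Nnmt-OE. The groups were well separated, although mock replicate 3 was higher than the other mock libraries. Its log2 fold change was 1.24 ± 0.20 (SE, edgeR's quasi-likelihood test, adjusted p = 0.00119), close to that of Egr1 but with a wider error. The annotation places 2 genes on the same strand over Dusp1 and 2 on the other strand, so a part of its reads may belong to a neighbour.

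Trib1 (ENSMUSG00000032501) encodes a pseudokinase that brings substrates to the ubiquitin ligase COP1. It stood at 64.8, 84 and 67.8 CPM in mock and at 114, 134.2 and 127.5 CPM in labelled Nnmt-OE. The lowest construct library lay above the highest mock library by more than the range of either group. The log2 fold change was 0.80 ± 0.13 (SE, edgeR's quasi-likelihood test, adjusted p = 0.00119).

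Ier3 (ENSMUSG00000003541), whose product acts in survival and ERK signalling, stood at 68.7, 96.3 and 73.4 CPM in mock and at 131, 120.9 and 111.6 CPM in labelled Nnmt-OE. Mock replicate 2 came nearest to the construct libraries, and the groups did not overlap. The log2 fold change was 0.61 ± 0.12 (SE, edgeR's quasi-likelihood test, adjusted p = 0.033). This call held in 4 of the 12 fits that left out 1 library, and its adjusted p reached 0.62 without Nnmt-OE replicate 1. It was lost as well in the fit of the untreated groups only (edgeR adjusted p = 0.301), and without mock replicate 1 and Nnmt-OE replicate 1 together (edgeR adjusted p = 1).

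Ccn1 (ENSMUSG00000028195) encodes a secreted matricellular protein that binds integrins and is induced by SRF and by YAP with TEAD factors. It stood at 704.9, 621.3 and 663.6 CPM in mock and at 856.9, 962.6 and 858.7 CPM in labelled Nnmt-OE. It had the smallest fold of the 5, 1.35, on the largest counts, and its groups were also apart. The log2 fold change was 0.43 ± 0.08 (SE, edgeR's quasi-likelihood test, adjusted p = 0.0133). The call held in 8 of 12 fits that left out 1 library, and the adjusted p was 0.208 without Nnmt-OE replicate 2. In the fit of the untreated groups only, Ccn1 did not pass (edgeR adjusted p = 0.251).

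**Figure D2:**
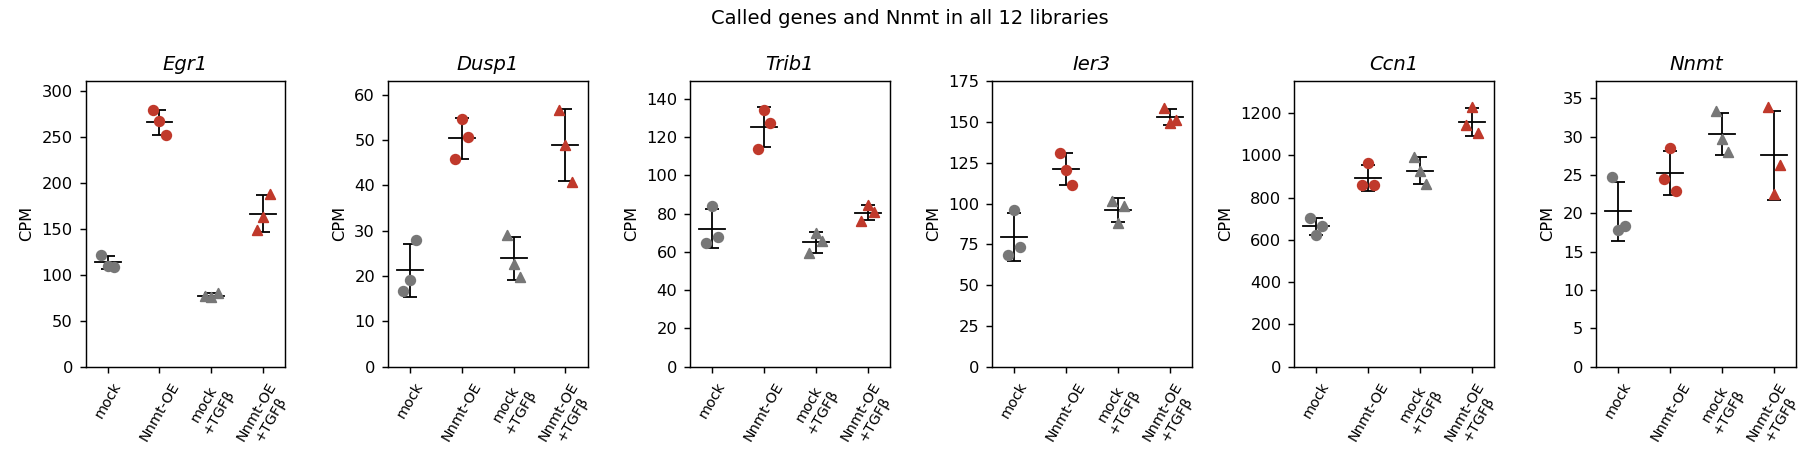
CPM (y axes, from 0) of the 5 genes past the test and of Nnmt in all 12 libraries, with points for libraries (triangles with TGFβ), horizontal lines for group means and bars for 1 SD (n = 3). For the 5 genes the red labelled Nnmt-OE points lie above the grey mock points in both settings, and for Nnmt they overlap.

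The called genes were all higher, and whether they share a regulator was not tested. Some of the factors that act on immediate-early genes bind close to the start site. For this reason the promoters of 3 of the 5, taken from the RefSeq table for mouse build GRCm38.p6, are shown. Each is the 250 bases before the annotated start, read 5′ to 3′ on the strand of the gene. Capitals mark matches on either strand to the cAMP response element TGACGTCA, its core TGACG, the TEAD motif GGAATG and the TATA motif TATAAA, and the SRF motif (the CArG box) was searched too. The windows are chr17:26508473-26508722 (minus strand) for Dusp1, chr3:145649986-145650235 (minus strand) for Ccn1 and chr17:35821463-35821712 (plus strand) for Ier3.
Dusp1: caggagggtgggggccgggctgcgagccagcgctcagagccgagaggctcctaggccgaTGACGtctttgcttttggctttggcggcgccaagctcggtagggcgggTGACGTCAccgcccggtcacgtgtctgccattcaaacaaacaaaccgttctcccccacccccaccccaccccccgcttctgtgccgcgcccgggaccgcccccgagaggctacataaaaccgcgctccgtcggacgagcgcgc
Ccn1: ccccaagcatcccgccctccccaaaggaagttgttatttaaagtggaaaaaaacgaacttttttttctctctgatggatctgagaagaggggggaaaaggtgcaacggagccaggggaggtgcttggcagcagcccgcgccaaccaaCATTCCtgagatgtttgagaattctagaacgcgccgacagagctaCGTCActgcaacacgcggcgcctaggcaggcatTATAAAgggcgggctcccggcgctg
Ier3: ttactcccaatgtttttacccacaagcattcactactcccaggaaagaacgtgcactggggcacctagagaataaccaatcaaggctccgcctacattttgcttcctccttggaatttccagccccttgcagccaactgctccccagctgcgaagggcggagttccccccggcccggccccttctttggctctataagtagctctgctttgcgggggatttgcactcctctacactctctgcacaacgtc
Dusp1 held 1 full cAMP response element and 3 matches to its core, a pair of which lie within the full element. Ccn1 held 1 match each to the core, the TEAD motif and the TATA motif, and in Ier3 none of these letters was in the window. Among 32851 promoters of this length, 1.55% held the full cAMP response element, 17.8% its core, 12.6% the TEAD motif, 12.4% the TATA motif and 1.47% the CArG box. Among the 11452 of them that belong to genes tested here, the shares were 2.67, 27.5, 10.6, 6.12 and 1.18% in the same order. A match is a description of the sequence, and no binding was measured here. The promoters of Egr1 and Trib1 are not shown, and no motif count is given for them. Absence here need not mean that the RefSeq table lacks them.

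The wider immediate-early class was described over 3 lists, drawn up with the 5 calls already known, of which 83 members passed the filter on low counts. The listed genes that did not pass it were Egr2, Egr3, Egr4, Nr4a3, Spry4, Areg, Cxcl2, Il6, Has2 and Il11. Of the 83, 72 had a positive log2 fold change and the median was 0.25, against 50.2% positive and a median of 0.00 over all genes tested. In 33 of the 83 (39.8%) all 3 labelled Nnmt-OE libraries lay above all 3 mock libraries, and in 0 they all lay below, against 5.64% and 5.29% of all genes tested. Leaving out the 5 called genes, which the lists were built around, 67 of 78 were positive, the median was 0.24 and 28 (35.9%) were higher without overlap. Apart from the 5 genes above, 0 passed edgeR's quasi-likelihood test. Without mock replicate 1 and Nnmt-OE replicate 1, 68 members were positive and the median was 0.23.

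**Figure D3:**
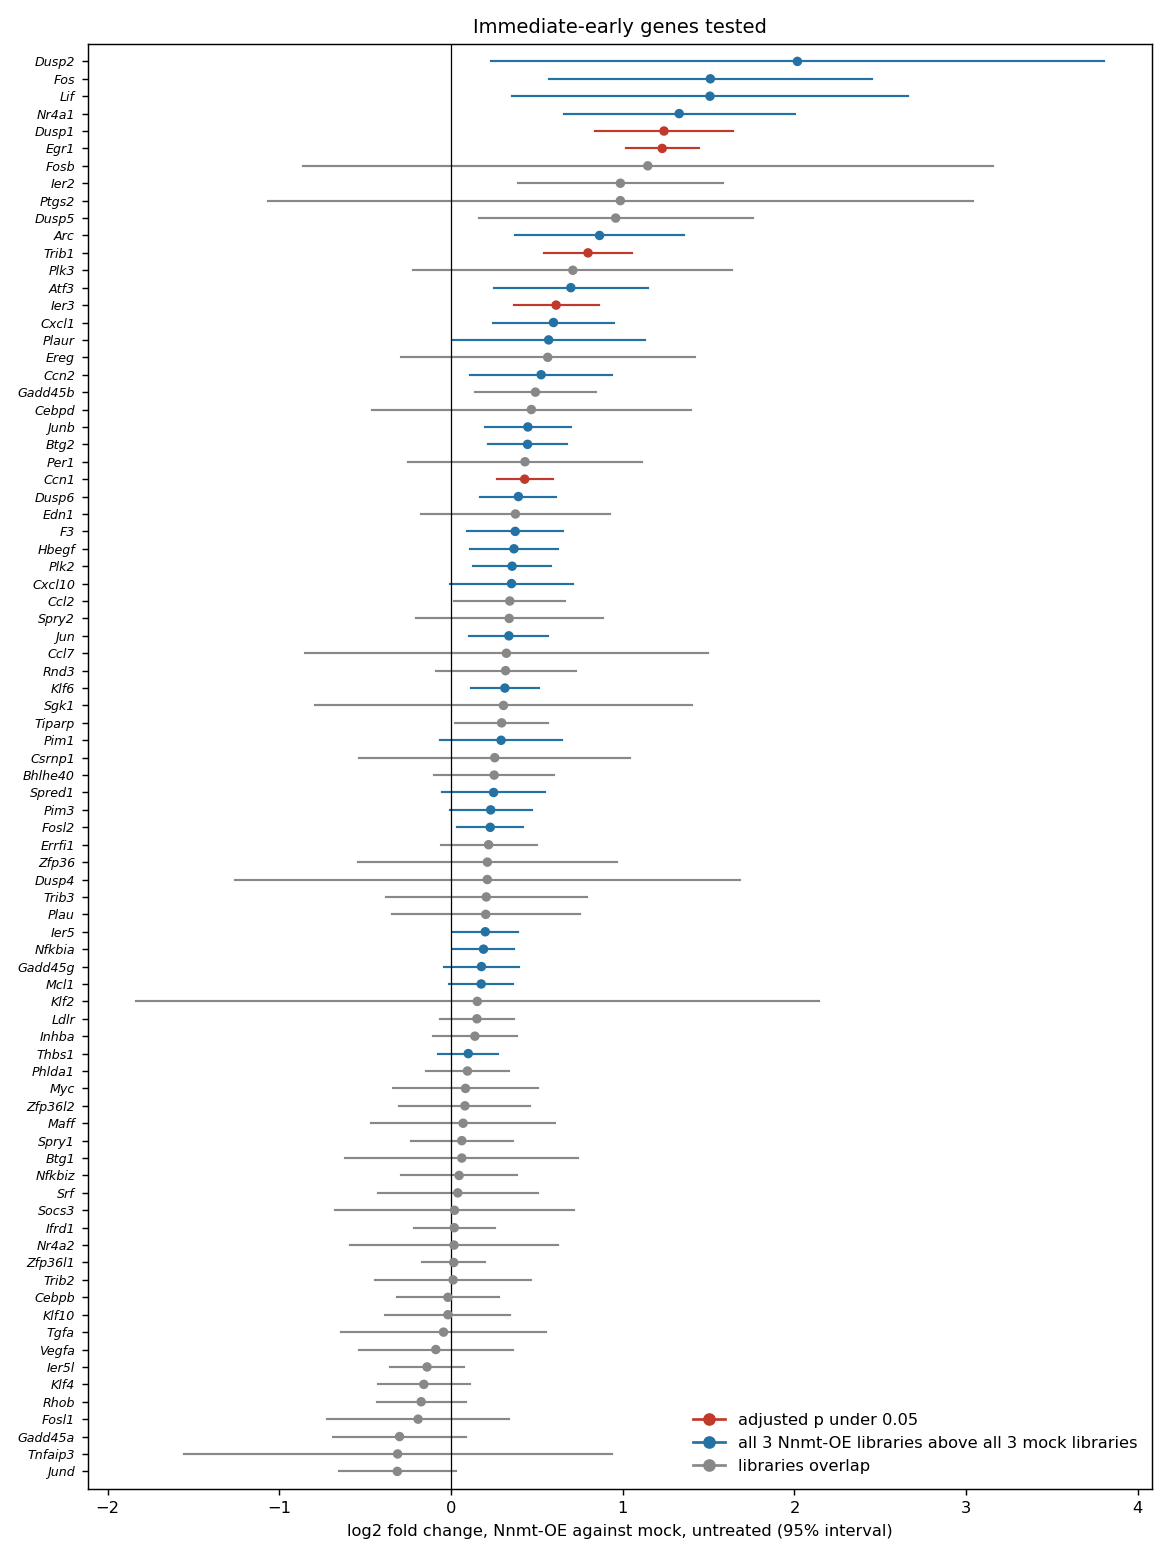
Log2 fold change of labelled Nnmt-OE against mock with its 95% interval (x axis) for tested immediate-early genes, in order of size. Red marks the 5 genes past the test, blue the others whose 3 labelled Nnmt-OE libraries all lie above the 3 mock libraries, and grey those that overlap; most points lie to the right of 0.

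Among the transcription factors of the class, 25 were tested, 1 was called and 9 were higher without overlap (36%), against 5.64% of all genes tested. Fos, which pairs with Jun proteins to form AP-1, stood at 8.3, 3 and 2.3 CPM in mock and at 10.2, 12.3 and 16.5 CPM in labelled Nnmt-OE. The groups did not overlap, but mock replicate 1 came close to the lowest construct library, and the log2 value of 1.51 had an adjusted p of 0.782 in edgeR's quasi-likelihood test. Without mock replicate 1 the log2 value of Fos was 2.30 (edgeR adjusted p = 0.263). The orphan nuclear receptor gene Nr4a1 stood at 7.5, 5.5 and 7.7 CPM in mock and at 20.7, 13.8 and 17.7 CPM in labelled Nnmt-OE. All its construct libraries were clearly above mock, at low counts, and the log2 value of 1.33 had an adjusted p of 0.42 in the same edgeR test. The stress factor gene Atf3 stood at 19.5, 19.1 and 15.5 CPM in mock and at 28.6, 28.6 and 30.5 CPM in labelled Nnmt-OE, which is 0.70 in log2. The AP-1 genes differed among themselves. Jun had a log2 value of 0.34, Junb, which overlaps Prdx2 on the other strand, 0.45, and Fosl2 0.23, all without overlap, while Fosl1 was at -0.19 and Jund at -0.31 with overlapping libraries. For Jund, mock replicate 1 stood at 468.6 CPM and the other 5 libraries between 257.4 and 291.1 CPM, and without mock replicate 1 its log2 value was -0.03. Ier2, an early gene of unsettled function, had a log2 value of 0.99 with overlap, since mock replicate 3 (14.4 CPM) exceeded Nnmt-OE replicate 3 (14.1 CPM). The growth regulator genes Myc (0.08), Klf4 (-0.16) and Srf (0.04) overlapped too.

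Among the signalling and messenger-decay regulators, 38 were tested, 3 were called and 14 were higher without overlap (36.8%). The shares over all genes tested were 5.64% higher and 5.29% lower. The phosphatases that act on MAP kinases formed a list of 11 tested genes, of which Dusp1 rose. Of the 11, 5 were higher without overlap (45.5%) and 0 lower, with a median log2 value of 0.37. Without the 5 members shared with the immediate-early lists, 2 of 6 (33.3%) were higher and the median was 0.13. With TGFβ, 2 of the 11 were higher and 2 lower without overlap, and the median was 0.19. The shares over all genes tested with TGFβ were 5.27% and 4.95%. Dusp6, the cytoplasmic phosphatase selective for ERK, stood at 143, 136.4 and 130.9 CPM in mock and at 180.8, 189.8 and 167.5 CPM in labelled Nnmt-OE. Its groups did not overlap, and its log2 value was 0.39 (edgeR's quasi-likelihood test, adjusted p = 0.718). Dusp2 had a larger value, 2.02, on 0 to 3.66 CPM. Dusp8 and Dusp16, which act on JNK and p38, were at 0.37 and 0.23, also without overlap. The antiproliferative gene Btg2 stood at 101.8, 115.6 and 118.1 CPM in mock and at 159.2, 152.4 and 145.2 CPM in labelled Nnmt-OE (log2 0.45, edgeR's quasi-likelihood test, adjusted p = 0.453). Arc, best known as an early gene of neurons, stood at 15.6, 12.5 and 16 CPM in mock and at 29.5, 26.7 and 24.5 CPM in labelled Nnmt-OE (log2 0.86). Both genes were separated between the groups by more than the range within either, and neither passed the test. The RNA-binding decay factor gene Zfp36l1 had a log2 value of 0.02, and the growth arrest gene Gadd45a was at -0.30, each with overlap.

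Among the secreted and surface products, 20 were tested, 1 was called and 10 were higher without overlap. That share (50%) was the highest of the 3 lists, against 5.64% over all genes tested. Ccn2, the relative of Ccn1 that is widely read as a profibrotic factor, stood at 176.4, 251.1 and 208.7 CPM in mock and at 315.7, 335 and 263 CPM in labelled Nnmt-OE. The lowest construct library exceeded the highest mock library by less than the range of mock, and the log2 value was 0.52 (edgeR's quasi-likelihood test, adjusted p = 0.813). The neutrophil chemokine gene Cxcl1 stood at 34.1, 38.2 and 30.4 CPM in mock and at 43.4, 57.1 and 54.3 CPM in labelled Nnmt-OE (log2 0.60). The EGF receptor ligand gene Hbegf was at 0.37 and the tissue factor gene F3 at 0.37, each without overlap and short of the test. The cytokine gene Lif had a log2 value of 1.51, with 1 read in mock replicate 1 against 33 and 36 in the other mock libraries, and a value of 0.93 without that library. Vegfa, the endothelial growth factor gene, was at -0.09 with overlap.

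The summed level of the 83 genes was 6595, 6606 and 6445 CPM in mock and 7878, 7871 and 7651 CPM in labelled Nnmt-OE. Without the 5 called genes the sums were 5618, 5675 and 5503 CPM in mock and 6451, 6331 and 6251 CPM in labelled Nnmt-OE. In both sums the libraries within a group lay close together and the groups were apart. Ccn1, the largest contributor, gave 9.4 to 12.2% of the sum of the 83 genes. These percentages are of the level, not of the gap between the groups. These sums describe a set of genes chosen with the calls known and carry no test.

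The same genes were read in the TGFβ-treated libraries, which share no library with the untreated comparison although they come from the same cell populations. With TGFβ, Egr1 stood at 76.8, 75.6 and 80.6 CPM in mock and at 149.1, 163.2 and 188.3 CPM in labelled Nnmt-OE, a log2 fold change of 1.10. The log2 values of the other called genes were 1.03 for Dusp1, 0.67 for Ier3, 0.32 for Ccn1 and 0.31 for Trib1, and all 5 genes were without overlap in both settings. Of these, Egr1, Dusp1 and Ier3 passed edgeR's quasi-likelihood test with TGFβ (adjusted p = 1.43e-08, 0.0261 and 0.0119), 3 genes of 12897 (0.0233%), and Trib1 (adjusted p = 0.998) and Ccn1 (adjusted p = 0.446) did not. The difference between the settings was itself tested, and 0 genes were called in the interaction by edgeR's quasi-likelihood test, with 501 (3.88%) at an unadjusted p under 0.05. Trib1 had an interaction of -0.49 in log2 (95% interval -0.85 to -0.12, edgeR's quasi-likelihood test, adjusted p = 0.999), and the interval for Egr1 was -0.43 to 0.18. Among the 78 immediate-early genes outside the calls, 60 were positive with TGFβ (49.5% of all genes tested were), 25 (32.1%) were higher without overlap and 1 was lower, and 15 were higher without overlap in both settings. Over all genes tested, 5.27% were higher and 4.95% lower without overlap with TGFβ, and 0.558% were so in both settings. As a description, the 2 sets of log2 fold changes had a Pearson correlation of 0.45 over the 83 genes and 0.10 over the 9392 genes at 10 CPM or more. Genes of 1 library share its depth and preparation, so these are not independent points.

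**Figure D4:**
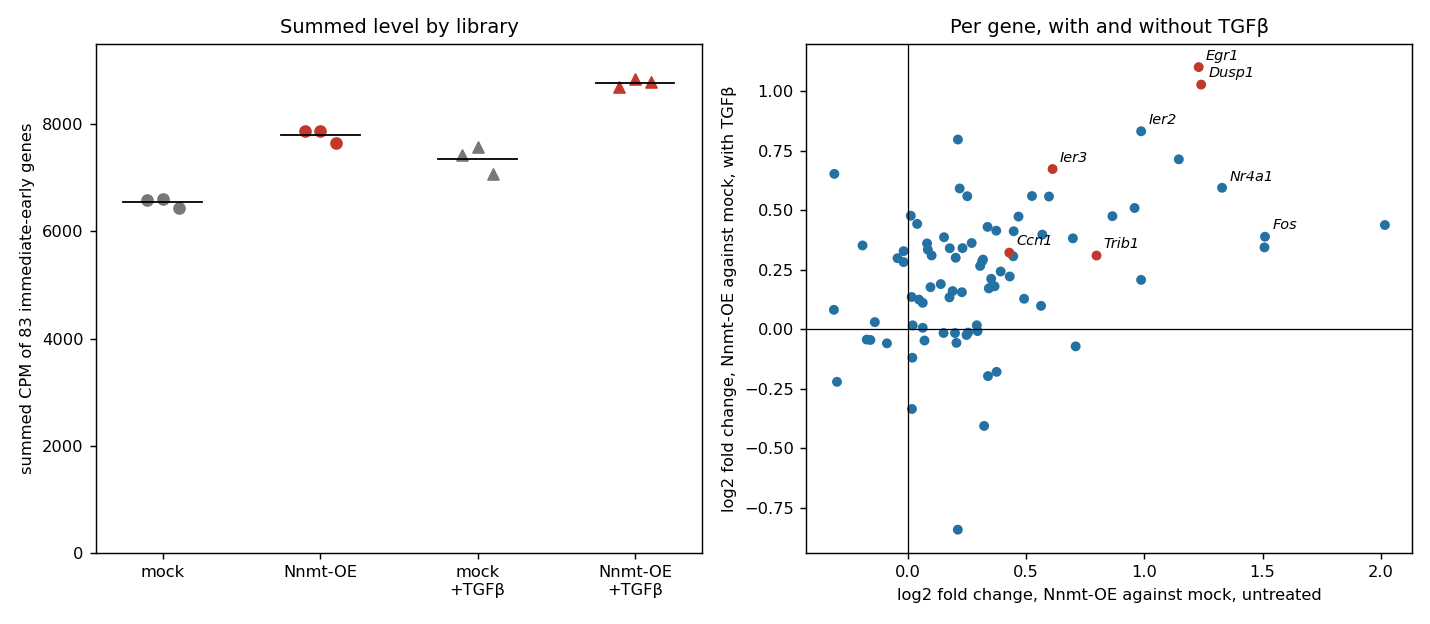
Left, summed CPM of the 83 immediate-early genes (y axis, from 0) in each of the 12 libraries, with lines at the group means; right, each gene's log2 fold change with TGFβ (y axis) against that without (x axis), with the 5 called genes in red. Sums in labelled Nnmt-OE lie above those in mock in both settings (untreated 7651 to 7878 against 6445 to 6606 CPM), and Egr1 and Dusp1 lie farthest along the diagonal.

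The kinase pathway that leads to these genes was read at the message level only. Of 29 genes of the ERK pathway and SRF cofactors, 0 passed edgeR's quasi-likelihood test, 0 were higher without overlap (5.64% over all genes tested) and 3 lower (10.3%, against 5.29%), and the median log2 value was -0.08. The receptor gene Egfr had a fold of 1.08 (95% interval 0.90 to 1.29), and the kinase gene Mapk3 had a fold of 1.01 (0.85 to 1.2). Of 16 tested genes for p38, JNK and stress kinases, 0 passed, 2 were higher without overlap (12.5%) and the median was 0.11. Phosphorylation was not measured.

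The lists in this paragraph share members with the immediate-early class and were read with and without those members. Some other lists that share members are not read here. Over all genes tested, 5.64% were higher and 5.29% lower without overlap. Of 21 TGFβ-SMAD response genes, 0 passed, 9 were higher without overlap (42.9%) and 0 lower, and the median was 0.15. Without the 5 shared members, 6 of 16 (37.5%) were higher without overlap and the median was 0.09. Pdgfb, a growth factor gene, stood at 170.7, 184.7 and 157 CPM in mock and at 205.8, 208.2 and 223.7 CPM in labelled Nnmt-OE, so all construct libraries were above mock (log2 0.32, edgeR's quasi-likelihood test, adjusted p = 0.782). Of 24 YAP-TEAD targets, Ccn1 rose and 5 were higher without overlap (20.8%), and without the 4 shared members 2 of 20 (10%) were. Of 30 senescence-associated secretory genes, 0 passed and 8 were higher without overlap (26.7%), and without the 12 shared members 2 of 18 (11.1%) were, with a median of 0.02. Of 38 p53 and arrest genes, 0 passed and 3 were higher without overlap (7.89%), and without the 4 shared members 1 of 34 (2.94%) was.

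**Figure D5:**
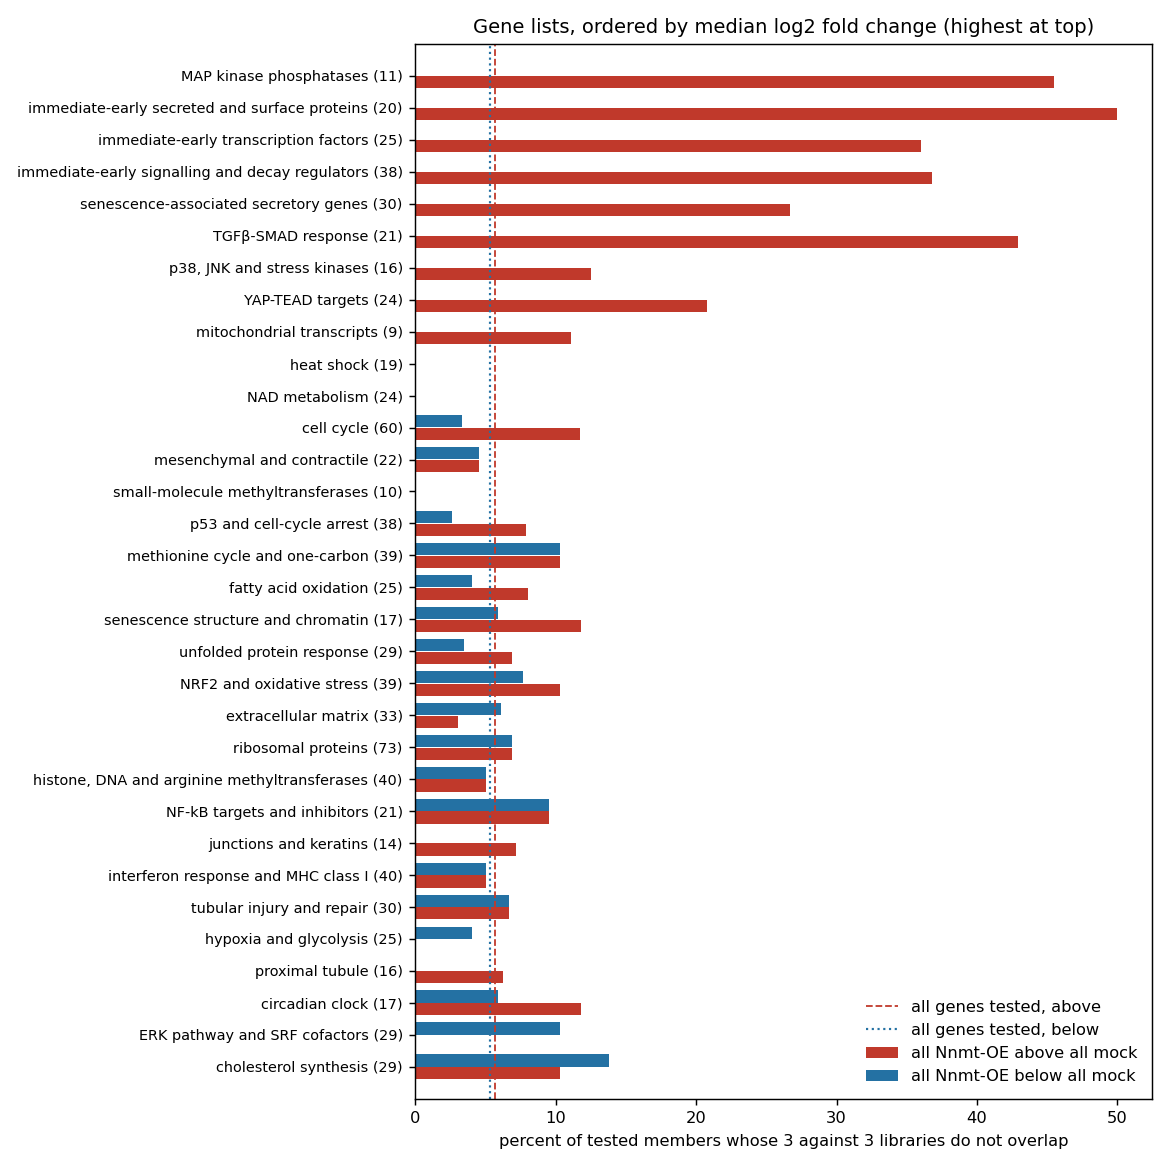
Percent of tested members (x axis) whose 3 labelled Nnmt-OE libraries all lie above (red) or all below (blue) the 3 mock libraries, for the lists with at least 9 tested members (number in brackets), ordered by median log2 fold change. Dashed and dotted lines mark the same shares over all genes tested (5.64% and 5.29%), and the immediate-early, MAP kinase phosphatase and TGFβ-SMAD lists reach farthest past them. The MAP kinase phosphatase and TGFβ-SMAD lists each share 5 tested members with the immediate-early lists.

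Genes of senescence and fibrosis, named for the question in the title of the series and not by a rule, did not pass the test. Cdkn1a, which encodes the cell-cycle inhibitor p21, stood at 1167, 1821 and 1766 CPM in mock and at 1997, 1748 and 2015 CPM in labelled Nnmt-OE. Mock replicate 1 was the low library, the other mock libraries lay above Nnmt-OE replicate 2, and the fold was 1.21 (95% interval 1.02 to 1.44, edgeR's quasi-likelihood test, adjusted p = 0.813). In log2 this is 0.28, and 0.09 without mock replicate 1. Cdkn2a, the gene for p16 and Arf, had a fold of 0.86 (0.73 to 1.01), with libraries overlapping. The nuclear lamina gene Lmnb1, which falls in many senescent cells, had a fold of 1.07 (0.93 to 1.22), and the proliferation marker gene Mki67 had 0.95 (0.83 to 1.09). Gdf15, a secreted stress cytokine gene, had a fold of 0.99 (0.74 to 1.32), with mock replicate 1 at 2749 CPM and the others between 1645 and 2114 CPM. The smooth muscle actin gene Acta2 had a fold of 1.16 (0.88 to 1.52), the fibronectin gene Fn1 0.93 (0.83 to 1.05), the vimentin gene Vim 0.99 (0.88 to 1.10) and the tubular injury gene Havcr1 0.95 (0.70 to 1.30). Of 60 cell cycle genes, 0 passed, 7 were higher (11.7%) and 2 lower (3.33%) without overlap, against 5.64% and 5.29% of all genes tested, and all 60 had an interval within 2-fold of no change. Of 33 extracellular matrix genes, 0 passed, 1 was higher and 2 lower without overlap, and the median was -0.01.

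Genes around the reaction that Nnmt catalyses did not pass the test either. Of 24 tested genes of NAD metabolism, 0 were without overlap in either direction, with a median of 0.07. The salvage enzyme gene Nampt had a fold of 0.97 (95% interval 0.82 to 1.15) and the NAD-consuming deacetylase gene Sirt1 had 1.19 (0.78 to 1.81). Of 39 genes of the methionine cycle and one-carbon metabolism, 4 were higher and 4 lower without overlap (10.3% each, against 5.64% and 5.29% of all genes tested). The median of this list was 0.03, and S-adenosylmethionine was not measured. One of the 4 higher genes was Mat2a, which encodes the enzyme that makes S-adenosylmethionine. It stood at 241.1, 253.9 and 226.3 CPM in mock and at 279.1, 279.9 and 325.4 CPM in labelled Nnmt-OE, without overlap, and its log2 value was 0.29 (edgeR's quasi-likelihood test, adjusted p = 0.808). Of 40 histone, DNA and arginine methyltransferase genes, 0 passed, 2 were higher and 2 lower without overlap (5% each), and 38 had an interval within 2-fold of no change. The histone H3 methyltransferase gene Ezh2 had a fold of 0.98 (0.87 to 1.11) and the DNA methyltransferase gene Dnmt1 1.03 (0.90 to 1.18).

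The 20 genes with the smallest p, taken from all genes tested, held 15 that were higher and 5 that were lower. Of the 20, 10 were immediate-early genes, against 83 of the 12897 tested. These 10 include the 5 called genes, which were known when the lists were drawn up. By construction the 20 genes have the most separated libraries, so their counts are a description. The lower genes had no counterpart to Egr1. Flot2, a lipid raft protein gene, stood at 95.7, 74.2 and 76.8 CPM in mock and at 50.6, 55.6 and 56.3 CPM in labelled Nnmt-OE, without overlap (log2 -0.60, edgeR's quasi-likelihood test, adjusted p = 0.243). With TGFβ its log2 value was -0.06. Alyref, an mRNA export factor gene, had a log2 value of -0.52 without TGFβ and -0.05 with it. 4930563E22Rik, a gene model name among the 5 lower genes, had a log2 value of -3.08 (edgeR's quasi-likelihood test, adjusted p = 0.726). Gene model names were left out of the ranking by size. In it, the lower genes without overlap and with a mean of at least 10 CPM in the higher group began with Capza1 (-1.21). Capza1 encodes an actin capping protein. The TFIID subunit gene Taf8 (-1.08) and the MHC class II gene H2-Ab1 (-1.01) came next. Each of these 3 had an adjusted p of 0.718 or above in edgeR's quasi-likelihood test. H2-Ab1 stood at 13.5, 9.33 and 10.3 CPM in mock and at 4.47, 6.45 and 5.49 CPM in labelled Nnmt-OE, and at -0.69 in log2 with TGFβ, also without overlap. Among the 10 largest values above 0 by the same rule, Egr1, Dusp1, Fos, Nr4a1 and Lif belonged to the immediate-early lists, and the others were Fpgt (1.08), Exog (0.98), Peg3 (0.97), the pseudogene Rbx1-ps (0.96) and Aste1 (0.95), on few reads. The limit of 10 CPM was met by several of these genes, Fos, Nr4a1, Lif and H2-Ab1 among them, only in the group where they were high, so the limit is not independent of the change.

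The width of the intervals limits what can be read from genes that did not pass. Of 9392 genes at 10 CPM or more, 8750 (93.2%) had a 95% interval that lay within 2-fold of no change in both directions, and 5829 (62.1%) within 1.5-fold. Over all genes tested the share within 2-fold was 70.2%. At the median, the interval of a gene at 10 CPM or more reached 0.36 in log2 to either side.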

How the data were processed

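The table deposited by the authors gives raw read counts, with a row per gene and a column per library. Per the labels' protocols, 3′ tag libraries (QuantSeq forward) were made from 100 ng of RNA, with no mention of molecular identifiers, and reads, not molecules, were counted. The tools are STAR and HTSeq (no versions) per the submitters' processing notes, which name the human build GRCh38 although the identifiers are mouse Ensembl ones. The mouse build, annotation and strand setting were thus not given in the sources used here. Totals of reads given to no gene stayed out of sizes and tests. In the 6 untreated libraries reads outside genes made up 27.3 to 28.8%. GENCODE M21 names matched 55141 of 55487 identifiers.

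Samples were grouped by title. All 12 libraries entered 1 edgeR 4.0.16 fit (R 4.3.3) with a mean per group, TMM scaling, filterByExpr (minimum count 10, minimum total 15, which removed 42590 genes), the robust quasi-likelihood F test, and p-values adjusted over all genes by Benjamini-Hochberg at 0.05. Fold changes, SE and intervals come from that fit, and "without overlap" compares the CPM of 3 against 3 libraries. Alternatives were DESeq2 1.42.0, limma-voom (limma 3.58.1), RLE factors or library totals for scaling, no filter or one asking for 1 CPM in 3 libraries with 50 counts in all, a replicate block, the untreated groups only, a test against 1.2-fold, and each library left out. The fit without mock replicate 1 and Nnmt-OE replicate 1 was chosen after seeing the data.

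The comparison and the 37 lists (1030 genes, 821 tested) were chosen with earlier results of these data known. Named genes were Nnmt, all called genes and the 10 largest changes each way without overlap whose higher group averaged 10 CPM or more. Gene model names were left out of those changes. Also named were the 20 smallest p, up to 4 members of each list by p, and any immediate-early or MAP kinase phosphatase gene. Genes of the title's question, Egfr, Mapk3 and single list members given by name elsewhere fall outside the rule and were chosen with their values known. Replicate pairs all differed by more than counting noise. The test was checked on simulated data. Some genes that the rule covers are left out of the text and plots.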

Additional observations from a re-analysis of the deposited data

How the results depend on the processing

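The 5 higher and 0 lower calls were the same under RLE scaling, library totals, DESeq2, limma-voom and the stricter filter. Without a filter (20539 genes tested) 9 genes were higher and 4 lower, among them Ccn2, Flot2, Ppp1r14b and Rps9. In the fit of the untreated groups only 3 genes were higher (Egr1, Dusp1 and Trib1), and 2 (Egr1 and Dusp1) passed a test against 1.2-fold. Leaving out 1 library gave 3 to 6 higher and 0 to 1 lower; the count was 3 without mock replicate 3, Nnmt-OE replicate 1 or Nnmt-OE replicate 2, and the 1 lower gene, Ccdc173, appeared without Nnmt-OE replicate 2. Egr1, Dusp1 and Trib1 passed in all 12 of these fits, with highest adjusted p values of 6.41e-08, 0.0232 and 0.0274 in edgeR's quasi-likelihood test. The cause of these shifts was not tested. With the replicate block 4 genes were higher and 0 lower, and Ier3 was lost (edgeR's quasi-likelihood test, adjusted p = 0.0534). In log2 CPM, untreated libraries of the same group correlated at 0.95 to 0.96. With each gene's group mean removed, same-numbered untreated libraries of mock and labelled Nnmt-OE correlated at 0.02, -0.01 and -0.11. Those of unlike number then correlated at -0.11 to 0.15. Such values over all genes cannot settle whether same-numbered libraries were handled together, which the labels do not say. Without mock replicate 1 and Nnmt-OE replicate 1, 4 genes were higher and 0 lower. The immediate-early median stayed between 0.22 and 0.28 and 66 to 73 members were positive under all these settings, and the median of all genes stayed within 0.02 of 0. The interaction count was 0 under RLE scaling and with the block.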

Other observations

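Mock replicate 1, the library that stood apart on the first principal component, had an outlying level of several genes that did not pass the test. The mitochondrial transcript mt-Nd2 measured 2128 CPM in mock replicate 1, and 5531 and 6096 CPM in the other mock libraries, and its log2 fold change was 0.35 with that library and 0.01 without it. The summed mitochondrial transcripts were 62476 CPM in mock replicate 1, 71112 and 72433 CPM in the other mock libraries, and 65934 to 68276 CPM in labelled Nnmt-OE. Rps9, a ribosomal protein gene, stood at 679.8, 474.1 and 538.5 CPM in mock and at 429.7, 478.9 and 380.6 CPM in labelled Nnmt-OE, with a log2 value of -0.39 and overlapping libraries. The part of that library's preparation in these values was not tested. Of the 5 called genes, the mock replicate 1 value lay within or above the range of the other mock libraries for Egr1 and Ccn1, and below both for Dusp1, Trib1 and Ier3.

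Cholesterol synthesis, a list outside the questions of the study, had the lowest median of the lists with at least 9 tested members, -0.10 over 29 genes, with 3 members higher (10.3%) and 4 lower (13.8%) without overlap, against 5.64% and 5.29% of all genes tested, and 0 past edgeR's quasi-likelihood test.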
